A study of Arabidopsis thaliana with 6 samples.

Results

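Annotated intron retention (IR) bins are introns of Arabidopsis thaliana that carry an IR label in the deposited data. For 886 of the 910 bins described here, the RefSeq TAIR10.1 gene models hold a transcript that keeps the intron. The bins were followed in Col-0 (Columbia-0, wild type) seeds 12 h after a red pulse (Rp) or a far-red pulse (FRp). A bin was kept where the junction table labelled it IR or IR*, listed reads across the spliced junction, and held at least 30 reads on its junction and boundaries in each condition. Of 2515 bins with an IR label, 1038 had a listed exclusion junction and 910 met the minimum of reads, 836 labelled IR and 74 labelled IR*. What the asterisk marks is not given in the sources used here. These 910 introns lie in 833 genes, of which 765 hold 1 bin, 59 hold 2 and 9 hold 3, and the junction table holds 71928 events with both kinds of reads in all. The introns with no annotated alternative that passed the same minimum of reads, 57879 in number, are the set against which the annotated IR bins are described.

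There were 3 libraries of each condition, labelled as biological replicates. In the Rp group, Col-0 seeds on agar were left to imbibe for 2 h without light, received an FRp of 20 min, spent 3 dark days at 5 °C, and then received a saturating Rp of 20 min (calculated Pfr/P 0.87) at 0.05 µmol m-2 s-1. The FRp group had a second FRp (calculated Pfr/P 0.03) at 42 µmol m-2 s-1 in place of the Rp. Both groups share the first FRp and the cold treatment, and the colour of the last pulse and its photon flux cannot be told apart. The replicates share a pooled lot of Col-0 seeds from several plants, and whole seeds were extracted. Poly(A) RNA was sequenced in paired ends.

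In a plant cell, an intron that stays in a polyadenylated mRNA can keep the transcript in the nucleus, expose it to decay through a premature stop codon, or change the protein or the untranslated region (UTR). IR is the most common kind of alternative splicing (AS) in plants. Its level is read here as percent intron retention (PIR), the reads across the exon–intron and intron–exon boundaries as a share of those reads plus 2 times the reads on the spliced junction. A PIR of 100% means that no spliced read was seen. In seeds, the red-light receptor phytochrome B turns from Pr to its active Pfr form in red light and back in far-red light, and this switch controls germination.

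Gene reads per library numbered 26057621 to 31286686 after the Rp and 24234421 to 32387080 after the FRp. The 9 seed marker genes (cruciferins, 2S albumins and oleosins) were present in all libraries, none at 0, with summed levels of 11777.6 to 19173.1 CPM after the Rp and 117065 to 132687 CPM after the FRp, while the 5 leaf markers summed to 670.7 to 933.2 CPM after the Rp and 249.5 to 324.7 CPM after the FRp. In each library 0 to 2 of the leaf markers were at 0, and these were CA1 and LHCB1.1. The highest leaf marker of each library made up most of its sum, with 621.3 to 890.6 CPM after the Rp and 237.6 to 310.4 CPM after the FRp. Over the introns with no annotated alternative, summed PIR was 0.744 to 0.834% after the Rp and 0.891 to 1.09% after the FRp, without overlap. Summed over the annotated IR bins, PIR was 13.2 to 14.4% after the Rp and 14.7 to 16.6% after the FRp. This last sum weighs each bin by its reads. The bin of the gene M17 held 98039 FRp reads at a mean PIR of 99.9%, but only 6245 Rp reads. Boundary reads of all bins numbered 56075 to 69254 per FRp library, so the sum does not describe the typical bin. Over bins, the median PIR per library was 4.39 to 4.76% for the Rp and 3.79 to 4.42% for the FRp, with overlap. The part of the differences in summed PIR in the values of single introns was not tested. In whole seeds, fewer cells of a type and less RNA per cell cannot be told apart.

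The sequences of 8 introns show what these bins look like, and they are examples from coding bins called between the light pulses, described further on. They were picked after their values were seen and not by the size of the difference alone: they show introns with and without a stop codon in frame, and those of U2AF65A and RBP47C lie in genes for RNA-binding proteins. Each is given from 5′ to 3′ on the strand of the gene, as read from the RefSeq TAIR10.1 genome at the junction position of the deposited table. Capitals mark the first 2 and the last 2 bases of the intron and, where one is met, the first stop codon in the reading frame of the upstream exon. The first lies at chr3:5786691-5786784 (minus strand) in LPD1 (AT3G16950), which encodes the plastid lipoamide dehydrogenase. The second lies at chr2:13788997-13789107 (minus) in ARASP (AT2G32480), which encodes a chloroplast membrane metalloprotease, and the third at chr2:13935642-13935701 (minus) in the protein kinase gene AT2G32850. The next lies at chr1:25575218-25575285 (minus) in AT1G68240, a gene for a basic helix-loop-helix (bHLH) DNA-binding protein. Then come chr4:17294604-17294703 (minus) in U2AF65A (AT4G36690), chr4:16833429-16833539 (plus) in the clathrin adaptor gene AT4G35410, chr1:26630583-26630700 (plus) in AT1G70620, annotated as a cyclin-like protein, and chr1:17426097-17426209 (plus) in RBP47C (AT1G47490), which encodes an RNA-binding protein.
LPD1 E002: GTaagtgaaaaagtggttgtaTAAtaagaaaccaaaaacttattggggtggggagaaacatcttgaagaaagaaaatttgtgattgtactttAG
ARASP E002: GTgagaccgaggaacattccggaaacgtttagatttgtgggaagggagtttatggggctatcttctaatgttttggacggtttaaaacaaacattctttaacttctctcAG
AT2G32850 E002: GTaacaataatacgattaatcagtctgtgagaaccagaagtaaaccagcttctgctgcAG
AT1G68240 E002: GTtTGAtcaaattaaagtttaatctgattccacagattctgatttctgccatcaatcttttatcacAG
U2AF65A E007: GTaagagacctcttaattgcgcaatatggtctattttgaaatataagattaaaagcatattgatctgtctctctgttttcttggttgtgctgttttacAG
AT4G35410 E006: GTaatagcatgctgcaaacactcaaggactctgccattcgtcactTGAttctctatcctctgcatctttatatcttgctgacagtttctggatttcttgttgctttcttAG
AT1G70620 E020: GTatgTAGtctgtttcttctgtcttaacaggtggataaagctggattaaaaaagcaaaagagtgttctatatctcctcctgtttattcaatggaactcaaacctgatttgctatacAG
RBP47C E004: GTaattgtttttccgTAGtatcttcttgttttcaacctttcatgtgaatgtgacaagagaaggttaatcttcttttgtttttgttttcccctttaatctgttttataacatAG

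The introns of ARASP (111 nt) and AT2G32850 (60 nt) carry no stop codon in frame and are multiples of 3, so that their retained forms add 37 and 20 codons to the reading frame. A stop codon is met after 1 codon in the bHLH gene AT1G68240, after 2 codons in AT1G70620, after 5 codons in RBP47C, after 7 codons in LPD1 and after 15 codons in AT4G35410. The intron of U2AF65A (100 nt) holds no stop codon in frame but shifts the frame behind it. All 8 begin with GT and end with AG.

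Retention of the annotated IR bins was low in most and close to complete in a few. The median over bins of the mean PIR of the 6 libraries was 5.08% (quartiles 1.31 and 17.7%), against 0.455% over introns with no annotated alternative. A mean PIR over 20% was reached by 209 of 910 bins (22.97%) and a PIR over 50% by 95 (10.4%), 60 of them in every library, against 1.23% and 0.209% of the other introns. No read on either boundary was seen in any library for 29 bins. The median SD over 3 libraries was 1.95 points after the Rp and 1.87 points after the FRp. Most annotated IR bins are introns for which a retained transcript has been annotated, and TAIR10.1 holds one for 886 bins (97.4%) and for 3.14% of the other introns.

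**Figure D1:**
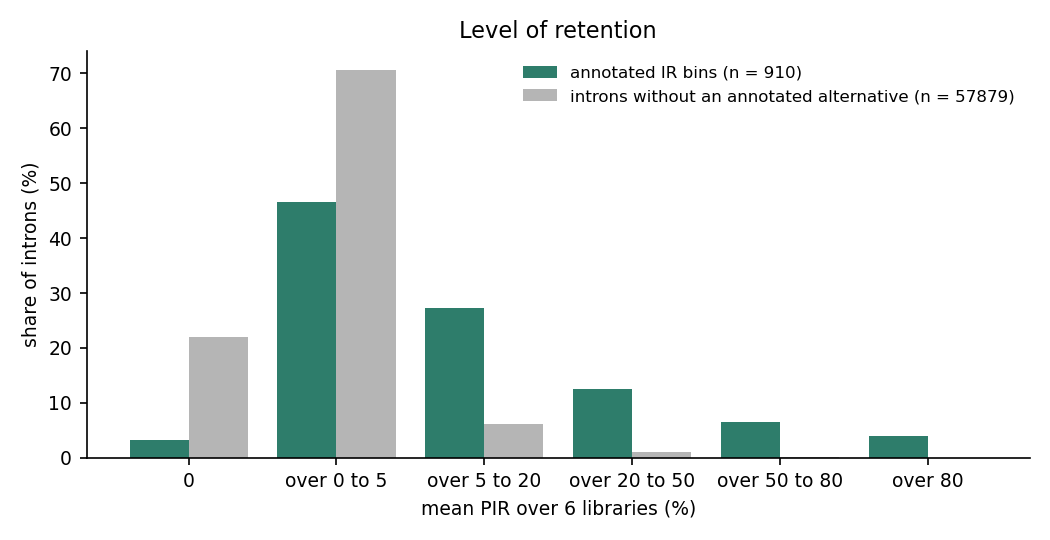
Share of introns (%) in 6 classes of mean PIR over the 6 libraries, for 910 annotated IR bins and 57879 introns without an annotated alternative. Of the annotated IR bins 10.4% exceed 50%, against 0.209% of the other introns.

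The bins with the highest PIR among those with at least 300 reads in each condition were kept by most transcripts in both conditions. AT1G68660, which is annotated as a ClpS-like adaptor of the Clp protease, had a PIR of 99.2, 99.05 and 99.1% after the Rp and of 94.8, 93.7 and 96.5% after the FRp. The 2 groups did not overlap, but the difference did not pass the test (edgeR's quasi-likelihood test, Benjamini-Hochberg adjusted p = 0.192). In EXPA1, which encodes an expansin that loosens cell walls, bin E008 averaged 97.5 ± 0.272% after the Rp and 98.5 ± 0.268% after the FRp (mean ± SD, n = 3 each), and its neighbour E006 averaged 84.9% after the Rp and 88.2% after the FRp. The intron in the 5′ UTR of the same gene, E002, averaged 1.46% after the Rp and 6.18% after the FRp (adjusted p = 0.170 by edgeR's quasi-likelihood test). Introns of 1 gene thus stood at opposite ends of the range. In M17, a late embryogenesis abundant gene, the Rp libraries had 100, 83.9 and 99.7% and the FRp libraries 99.95, 99.89 and 99.97%, so that a single Rp library set the difference (adjusted p = 0.537 by the same test). TIC (TIME FOR COFFEE, a regulator of the circadian clock) averaged 97.4 ± 1.43% after the Rp and 93.9 ± 0.541% after the FRp, and GLT1, the NADH-dependent glutamate synthase, 95.1 ± 1.63% after the Rp and 93.4 ± 0.324% after the FRp (mean ± SD, n = 3 each), neither passing the test.

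Where an intron lies in the transcript that removes it went with its PIR. Of the 910 bins, 677 (74.4%) lie within the coding sequence, 117 (12.9%) in the 5′ UTR and 97 (10.7%) in the 3′ UTR, 17 are in transcripts with no coding sequence, and for 2 the junction is not annotated in TAIR10.1. Of the other introns 96.8% are coding, 2.00% lie in the 5′ UTR and 0.985% in the 3′ UTR. Median PIR was 31.9% for bins in the 3′ UTR and 10.5% for those in the 5′ UTR. Within the coding sequence it was 5.82% for introns with no stop codon in frame and a length that is a multiple of 3, 3.84% for those with no stop codon and another length, and 3.45% for the 519 introns with a stop codon in frame. Among the other introns the medians were 2.28% in the 3′ UTR, 0.962% in the 5′ UTR and 0.402 to 0.447% in the 3 coding classes. A PIR over 50% was reached by 37 of 97 bins in the 3′ UTR, by 15 of 117 in the 5′ UTR and by 17 of 519 with a stop codon in frame. Introns with no stop codon and a multiple of 3, which would add residues to the protein when kept, made up 12.9% of the coding bins and 2.76% of the other coding introns.

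**Figure D2:**
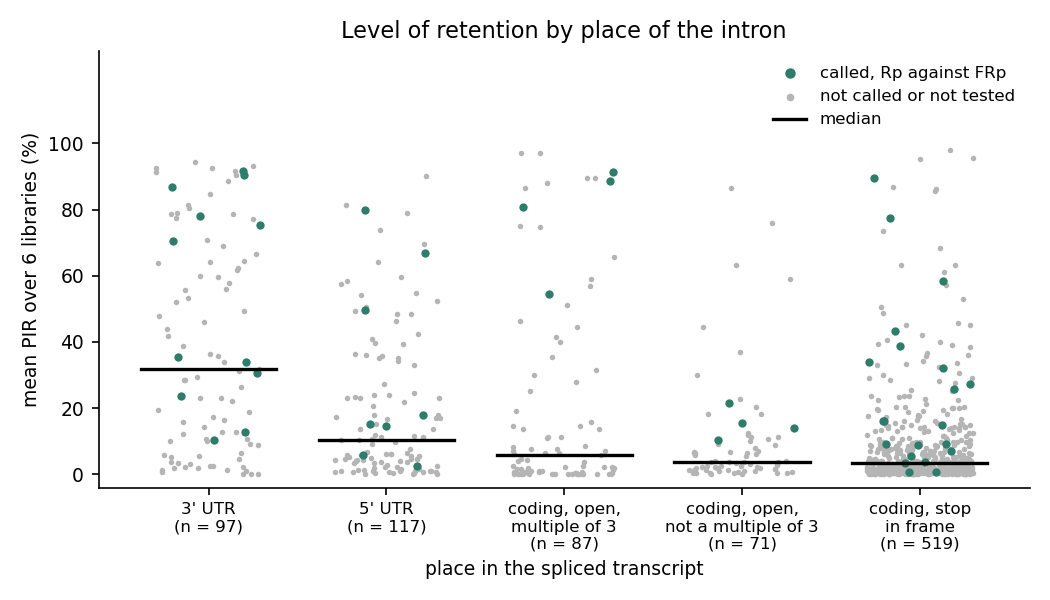
Mean PIR over the 6 libraries (%) of each bin, 1 point per bin, by place in the spliced transcript and, for coding introns, by reading frame; horizontal lines are medians and green points were called between Rp and FRp. The medians run from 31.9% in the 3′ UTR to 3.45% for coding introns with a stop codon in frame.

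Length set the bins apart little. Median length was 96 nt (quartiles 84 and 142, range 60 to 909) against 99 nt, and median GC content 34.1% against 33.3% for the other introns. Splice sites were scored by adding, over their bases, the log2 ratio of each base's frequency in the other introns to equal use of the 4 bases, so that a higher score is a site more like the usual one. The median score was 6.69 for donors of annotated IR bins and 7.32 for donors of the other introns, and it was 7.30 for acceptors of annotated IR bins and 7.68 for acceptors of the other introns. In 4 groups of bins of like size, from the lowest to the highest donor scores, median PIR was 8.49, 5.68, 4.58 and 3.36%. Across the 910 bins, Spearman's rho of donor score and mean PIR was -0.16, a weak relation given as a description, since bins share libraries and base composition. GT and AG ended 896 of the 910 introns, GC and AG 12, and AT and AC 2. The letters CTNAN, a loose form of the plant branch point, were searched on the gene's strand in the last 50 nt and stood in 63.2% of the bins and in 69.7% of the other introns.

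The comparison of Rp with FRp asked which of these introns were kept more or less after the pulse that induces germination. Of the 910 bins, 794 could be tested, and 51 of them were called (6.42%): PIR was higher after the Rp in 33 and lower in 18. Over all 28466 AS events tested, the same rule called 2.4%, 0.98% as higher and 1.42% as lower after the Rp. A call needed an adjusted p under 0.15 in edgeR's quasi-likelihood test on the inclusion and exclusion reads, adjusted over all events, and a difference over 0.5 percentage points. Of the remaining 116 bins, 112 had under 5 inclusion reads in total and 4 were in genes under the expression filter. In 216 of 794 tested bins (27.2%) the Rp libraries did not overlap the FRp libraries, against 18.6% of all tested events, and in 50 of the 51 called bins, the exception being GUS3 (AT5G34940), a glucuronidase gene. The median difference was 0.51 points over tested bins, 482 of them higher and 312 lower after the Rp, and 0.03 points over all tested events. Of the 794 tested bins 41 were called with a difference over 10 points, and of all events tested 0.994% were. The number of calls depended on the tool, and DESeq2 called 10 bins and limma 4, where DESeq2 called 0.541% of all events and limma also 0.541%.

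**Figure D3:**
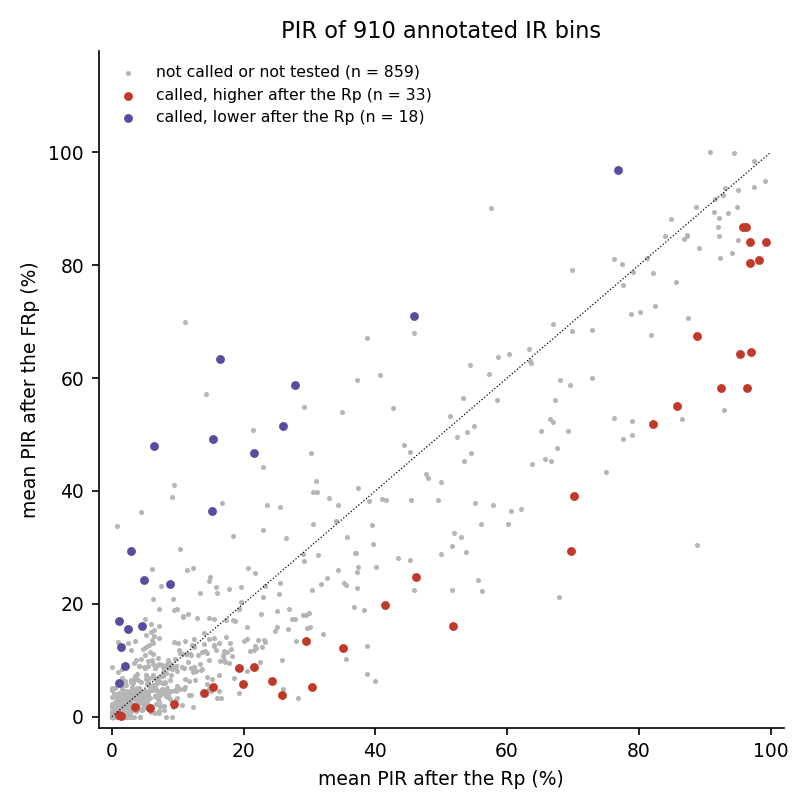
Mean PIR after the Rp (%, horizontal) and after the FRp (%, vertical) of 910 annotated IR bins, 1 point per bin. The 33 bins called higher after the Rp lie below the dotted line of equal PIR and the 18 called lower lie above it.

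The calls are given by place as a description, with no test between the classes. In the 3′ UTR 12 of 93 tested bins (12.9%) passed, 10 with a higher and 2 with a lower PIR after the Rp, and in the 5′ UTR 8 of 110 (7.27%), 7 higher and 1 lower. Of 62 tested coding bins with no stop codon and a multiple of 3, 4 (6.45%) were called, all 4 higher after the Rp. Of 447 tested bins with a stop codon in frame, 21 (4.70%) were called, 8 higher and 13 lower. The bins called higher reached a median PIR of 46.2% after the Rp, against 19.8% after the FRp, and 13 of them exceeded 80% after the Rp. Those called lower had a median of 7.59% after the Rp, against 32.9% after the FRp.

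The calls of 3 bins, in LPD1, ARASP and RWA2, held under every alternative tried. LPD1 is a subunit of the plastid pyruvate dehydrogenase complex, which makes the acetyl-CoA for fatty acid synthesis. Its bin had a PIR of 89.3, 100 and 100% after the Rp, against 62.3, 50 and 62.6% after the FRp. All 3 Rp libraries lay above all 3 FRp libraries, and the log2 odds ratio of inclusion, Rp over FRp, was 4.19 ± 0.75 (SE; edgeR's quasi-likelihood test, adjusted p = 1.94e-05, range over the alternatives 3.2e-06 to 0.129). Of its boundary reads, 88.2% lay on the boundary that the table names E1I, and the difference was 26.4 points on that boundary and 67.4 points on the other. The gene itself was higher after the Rp, at 33.1 ± 2.66 CPM, than after the FRp, at 14.9 ± 0.637 CPM (mean ± SD, n = 3 each).

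ARASP, the metalloprotease gene, had a PIR of 98.2, 95.3 and 97.6% after the Rp and of 71.0, 61.0 and 61.8% after the FRp. The groups were far apart relative to their spread, with a log2 odds ratio of 4.08 ± 0.90 (SE; adjusted p = 0.00184 by edgeR's quasi-likelihood test, range 0.0016 to 0.0918). Almost no spliced form of this intron, whose 37 codons can be read through, was left after the Rp. The level of the ARASP gene did not pass with TMM scaling but was called higher after the Rp without it, with TMM-scaled values of 17.6 ± 1.05 CPM after the Rp and 15.4 ± 0.782 CPM after the FRp (mean ± SD, n = 3 each). RWA2, which is needed for the O-acetylation of cell wall polysaccharides, moved the other way. Its bin E003 (160 nt, chr3:2039323-2039482, minus strand), with a stop codon after 24 codons, had 1.63, 1.41 and 5.83% after the Rp and 35.2, 27.5 and 25.3% after the FRp. The Rp libraries of RWA2 all lay below its FRp libraries, with a log2 odds ratio of -3.89 ± 0.58 (SE; adjusted p = 3.1e-08 by the same test, range 2.07e-08 to 0.107). The RWA2 gene was lower after the Rp, at 24.5 ± 2.04 CPM, against 52.7 ± 2.92 CPM after the FRp.

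Further bins with a higher PIR after the Rp were called by DESeq2 as well. In AT1G68240, the bHLH gene, PIR was 63.4, 41.2 and 50.9% after the Rp and 15.4, 12.99 and 19.8% after the FRp (log2 odds ratio 2.47 ± 0.60, SE; adjusted p = 0.00897 by edgeR's quasi-likelihood test). The lowest Rp library stood well above the highest FRp library. AT4G38090, annotated with a ribosomal protein S5 domain, averaged 24.4 ± 4.32% after the Rp and 6.34 ± 0.707% after the FRp (mean ± SD, n = 3 each). ASP5, the chloroplast aspartate aminotransferase, had 98.0, 96.9 and 100% after the Rp and 71.0, 85.0 and 86.5% after the FRp. The bin E006 of AT5G51410, a gene for a protein with the N-terminal domain of LUC7 (a protein of the U1 snRNP in yeast), had 87.6, 84.6 and 85.0% after the Rp and 48.9, 57.9 and 58.5% after the FRp. The second bin of the same gene, E004, also rose, with 99.3 ± 1.28% after the Rp and 84.0 ± 2.14% after the FRp (mean ± SD, n = 3 each), and both lie in the 3′ UTR. This second call was made by limma but not by DESeq2, and was lost whenever 1 library was left out. In AT4G21910, a transporter gene of the MATE efflux family, PIR was 24.8, 31.2 and 21.5% after the Rp and 3.33, 4.44 and 3.57% after the FRp, and in AT1G14650, whose product has the SWAP/surp domain found in splicing factors, it averaged 96.9 ± 0.992% after the Rp and 84.2 ± 3.22% after the FRp (mean ± SD, n = 3 each).

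The largest difference upward was in AT3G15395, annotated as an HrpN-interacting protein, with 76.3, 70.5 and 62.5% after the Rp and 29.4, 32.6 and 25.8% after the FRp. This call (adjusted p = 0.0729 by edgeR's quasi-likelihood test) rested on all 6 libraries, since it was lost whenever 1 was left out. In AT2G32850, the kinase gene with the 60 nt intron, PIR was 70.2, 72.7 and 67.6% after the Rp and 44.9, 34.3 and 38.1% after the FRp. ZIM, which encodes a GATA-type zinc finger protein with a TIFY domain, had 86.0, 100 and 100% after the Rp and 65.9, 73.3 and 53.3% after the FRp. Only 1.57% of the boundary reads of ZIM lay on its E1I boundary, so this value comes almost wholly from 1 side of the intron. AT1G61970, of the mitochondrial transcription termination factor family, averaged 92.5 ± 6.38% after the Rp and 58.3 ± 7.51% after the FRp, and ATSRL1 (AT5G37370), of the PRP38 family of splicing proteins, averaged 82.1 ± 3.04% after the Rp and 51.8 ± 9.70% after the FRp (mean ± SD, n = 3 each). PTM, a PHD-type transcription factor that is held in the chloroplast envelope, rose in its 3′ UTR intron, with 27.2, 38.3 and 39.8% after the Rp and 12.7, 9.21 and 14.3% after the FRp. SEN1, a subunit of the endonuclease that cuts introns out of tRNAs, had 12.5, 45.5 and 33.3% after the Rp and 3.85, 9.33 and 2.78% after the FRp, from 66 Rp reads and 105 FRp reads, and its call was lost whenever 1 library was left out. Of the 6 fits with 1 library left out, AT2G32850 and ZIM were called in 1 each, ATSRL1 in 2, AT1G61970 in 5 and PTM in 6. DESeq2 called none of the bins of this paragraph.

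Bins with a lower PIR after the Rp were led by AT4G02005, a gene with no coding sequence, with 22.2, 11.1 and 15.8% after the Rp and 45.5, 71.4 and 73.0% after the FRp. It held only 37 Rp reads and 70 FRp reads, and its call (adjusted p = 0.117 by edgeR's quasi-likelihood test) was lost in each fit with 1 library left out. In AT4G35410, the small chain of a clathrin adaptor complex, PIR fell to 3.53, 9.52 and 6.17% after the Rp, against 65.2, 45.5 and 33.3% after the FRp (adjusted p = 0.0151 by the same test). The bin of AT4G35410 held 110 Rp reads and 65 FRp reads. DESeq2 called this bin too, at an adjusted p of 0.0389 (range over the alternatives 0.0094 to 0.179). It is also the only called bin for which TAIR10.1 holds no retained transcript. AT1G53790, an F-box gene, had 12.3, 13.8 and 20% after the Rp and 37.8, 47.1 and 62.5% after the FRp, a call lost whenever 1 library was left out. AT1G70620 was deeply read, with 912 Rp reads and 1891 FRp reads, and its PIR was 24.9, 24.3 and 28.8% after the Rp and 47.0, 51.5 and 55.9% after the FRp (adjusted p = 0.0291 by edgeR's quasi-likelihood test).

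AT1G54730, of the major facilitator superfamily of transporters, had 2 bins that fell together. Its bin E021 had 22.6, 29.6 and 31.0% after the Rp and 61.0, 68.6 and 46.5% after the FRp, and its bin E023 had 44.7, 43.9 and 49.1% after the Rp and 69.3, 75.1 and 68.3% after the FRp. Their adjusted p-values were 0.134 for E021 and 0.0811 for E023 (edgeR's quasi-likelihood test). Neither was called by DESeq2 or limma, and each was called in only 1 of the 6 fits with 1 library left out. CDS4, a CDP-diacylglycerol synthase of the chloroplast, was the other gene with 2 bins called lower: E009 averaged 1.46 ± 1.35% after the Rp and 12.3 ± 5.76% after the FRp, and E007 averaged 2.43 ± 2.19% after the Rp and 15.5 ± 13.4% after the FRp (mean ± SD, n = 3 each). HYP1 (AT3G01100), listed as hypothetical protein 1, averaged 15.2 ± 1.98% after the Rp and 36.4 ± 1.72% after the FRp. The call of HYP1 was lost in each fit with 1 library left out, although its 2 groups were tight. AtkdsA1, which makes a precursor of the KDO sugar in pectin, fell in its 3′ UTR intron, with 80.4, 76.6 and 73.3% after the Rp and 90.5, 100 and 100% after the FRp. In AT2G38710, of the AMMECR1 family, PIR averaged 4.94 ± 3.75% after the Rp and 24.2 ± 3.69% after the FRp (mean ± SD, n = 3 each), but 97.9% of its boundary reads lay on the E1I boundary. PHB2, a mitochondrial prohibitin, fell to 1.04 ± 0.253% after the Rp, against 5.94 ± 1.41% after the FRp (mean ± SD, n = 3 each).

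**Figure D4:**
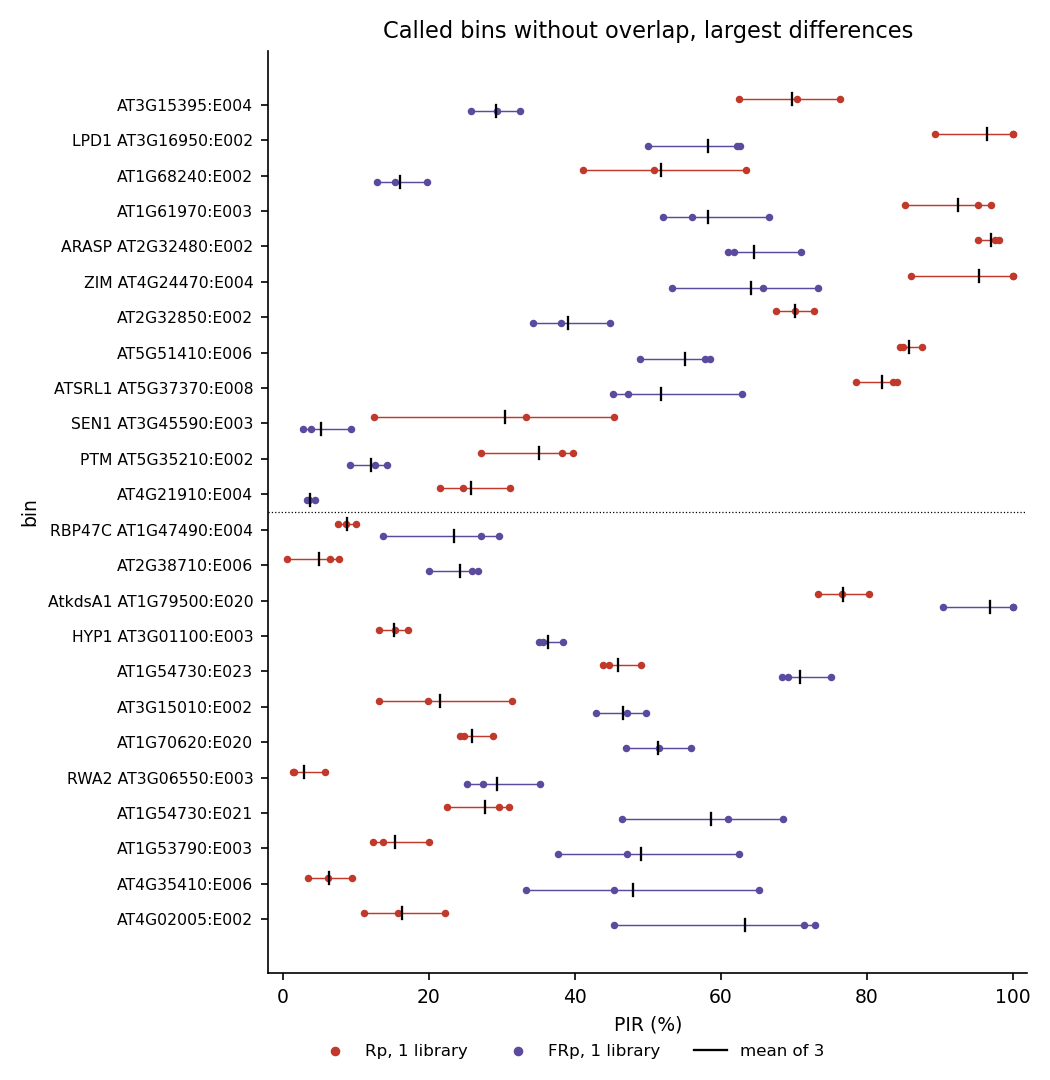
PIR (%) in each library of 24 called bins, the 12 higher (above the dotted line) and the 12 lower after the Rp with the largest differences among called bins whose groups did not overlap; for each bin the Rp libraries are drawn above the FRp libraries and black ticks are means of 3. The absence of overlap is part of that choice, and the widest spreads are in SEN1 after the Rp and AT4G35410 after the FRp.

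The splicing machinery was represented by few annotated IR bins. U2AF65A, the large subunit of the U2 auxiliary factor, which binds the polypyrimidine tract before the acceptor, had a PIR of 22.7, 27.1 and 38.6% after the Rp and 11.8, 13.6 and 15% after the FRp. Every Rp library was above every FRp library, and the bin was called (log2 odds ratio 1.41 ± 0.45, SE; adjusted p = 0.0960 by edgeR's quasi-likelihood test). The call was not made by DESeq2 or limma, with adjusted p-values of 0.436 and 0.341 (range over the alternatives 0.0146 to 0.436). The U2AF65A gene was lower after the Rp, at 160 ± 24.7 CPM, against 343 ± 27.4 CPM after the FRp (mean ± SD, n = 3 each). U1-70K, a protein of the U1 snRNP that recognises the donor site, had 24.2, 24.1 and 20.4% after the Rp and 41.4, 53.1 and 38.2% after the FRp in its 909 nt intron. The U1-70K groups did not overlap, but the adjusted p of 0.164 (same test) missed the threshold. SKB1, an arginine methyltransferase that acts on splicing proteins, had a PIR of 1.75 ± 0.509% after the Rp and 1.52 ± 0.439% after the FRp (mean ± SD, n = 3 each).

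Of the 18 genes for SR proteins, RNA-binding splicing factors rich in serine and arginine, 3 held a bin and none was called. SC35 averaged 69.3 ± 1.85% after the Rp and 50.7 ± 4.404% after the FRp without overlap (adjusted p = 0.192 by edgeR's quasi-likelihood test), with only 3.87% of its boundary reads on the E1I boundary. RS2Z33 averaged 2.95 ± 0.719% after the Rp and 3.77 ± 0.979% after the FRp, and SR34a 0.365 ± 0.0666% after the Rp and 0.325 ± 0.129% after the FRp (mean ± SD, n = 3 each). Of 20 other splicing regulators 3 held a bin, those just described, and 1 was called. The 8 genes of nonsense-mediated decay and the exon junction complex held none. By keyword, 24 bins lay in genes for splicing or RNA-binding proteins, of which 22 were tested, with 2 calls in each direction, where 6.42% of all tested annotated IR bins and 2.4% of all events were called. Their median difference was 2.66 points, against 0.51 over all tested annotated IR bins and 0.03 over all events. The 2 called lower in this group were RBP47C, with 8.62, 10.08 and 7.59% after the Rp and 27.2, 29.6 and 13.8% after the FRp, and AT3G15010, with an RNA recognition motif and 21.5 ± 9.21% after the Rp against 46.6 ± 3.41% after the FRp (mean ± SD, n = 3 each). The 2 called higher were U2AF65A and SEN1. The LUC7-domain gene, ATSRL1 and AT1G14650 are not in this count because their product names lack the keyword. AT1G14650 was singled out after its values were seen.

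The lists of light and hormone genes gave little to compare. Of 38 listed genes of light signalling and the clock, 1 held a bin: PRR3, a pseudo-response regulator of the clock, with 76 Rp reads and 195 FRp reads, none of them on an intron boundary. TIC, described above, is not on this list. Of 26 genes of dormancy and hormones, HAB1, a phosphatase that dampens abscisic acid signalling, had 17.2, 22.03 and 14.3% after the Rp and 22.9, 29.2 and 15.6% after the FRp, and the groups overlapped (adjusted p = 0.863 by edgeR's quasi-likelihood test). FHL, an FHY1-like protein that carries phytochrome A into the nucleus, is on neither list and was picked after its values were seen: its bin had 78.9, 100 and 100% after the Rp and 66.9, 51.1 and 44.9% after the FRp. Only 44 reads lay on FHL after the Rp against 405 after the FRp, and its adjusted p of 0.157 (same test) missed the threshold. Among other keyword groups, to be read against the 6.42% of all tested annotated IR bins and the 2.4% of all events that were called, kinases and phosphatases held 56 tested bins with 2 called higher, transcription factors and zinc fingers 41 with 4 higher, ubiquitin, F-box and proteasome genes 25 with 2 higher and 1 lower, ribosomal proteins 17 with 2 higher, chloroplast and photosystem genes 4 with 1 higher, and heat shock proteins and chaperones 6 with none called.

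The 5 called bins with the most reads, one of them in AT1G70620, held small differences and large ones. RCD1, a hub protein of stress signalling, had 0.956, 1.09 and 1.11% after the Rp and 0.246, 0.316 and 0.454% after the FRp, from 3097 Rp reads and 3873 FRp reads. These groups did not overlap although the difference was 0.71 points (adjusted p = 0.0851 by edgeR's quasi-likelihood test). AT2G27710, a protein of the acidic stalk of the 60S ribosome, had 3.77, 3.44 and 3.33% after the Rp and 2.13, 1.31 and 1.53% after the FRp in its 5′ UTR intron. KAK, the HECT ubiquitin ligase KAKTUS that limits branching of trichomes, had 45.4, 48.2 and 45.1% after the Rp and 23.5, 24.3 and 26.3% after the FRp, with a narrow spread in both groups (adjusted p = 0.0814 by the same test). AT4G04692 averaged 96.2 ± 3.61% after the Rp and 86.8 ± 2.49% after the FRp (mean ± SD, n = 3 each).

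Some larger differences, in bins with few reads, did not pass. WCRKC1, a thioredoxin, had 12.3, 8.82 and 12.3% after the Rp and 100, 10 and 100% after the FRp, from 110 Rp reads and 40 FRp reads. AT1G01260, a bHLH gene, had 100, 100 and 66.7% after the Rp and 36.4, 30 and 25% after the FRp, from 37 Rp reads and 38 FRp reads (adjusted p = 0.267 by edgeR's quasi-likelihood test). Both were chosen after their values were seen, and in the second the libraries did not overlap, but the difference missed the threshold. Just inside the minimum of 30 reads, AT3G55140 had a PIR of 6.67 ± 11.55% after the Rp and 2.22 ± 3.85% after the FRp (mean ± SD, n = 3 each), and AT1G13195 6.48 ± 5.78% after the Rp and 3.70 ± 6.42% after the FRp. AT5G66005 had 1.01 ± 1.75% after the Rp and 0% after the FRp. AT3G01590 went the other way, with 0.457 ± 0.791% after the Rp and 4.99 ± 4.61% after the FRp. Just outside it, AT1G17680 had 73.3 ± 46.2% after the Rp and 0% after the FRp, where no boundary read was seen, and AT1G78200 27.8 ± 15.8% after the Rp and 6.10 ± 6.56% after the FRp.

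Some well covered introns with a PIR over 20% hardly differed. RAP2.12 (AT1G53910), a transcription factor of the response to low oxygen, had 92.6, 92.4 and 89.7% after the Rp and 91.1, 93.0 and 91.3% after the FRp. The gene for the spliceosomal core protein smB (AT4G20440) averaged 92.7 ± 0.992% after the Rp and 92.5 ± 1.90% after the FRp, and GRX4, a glutaredoxin, 81.3 ± 4.81% after the Rp and 81.4 ± 8.16% after the FRp (mean ± SD, n = 3 each). AT2G24420, annotated as a DNA repair ATPase-like protein, averaged 93.0 ± 4.50% after the Rp and 93.6 ± 2.74% after the FRp, and AT5G66240, of the WD40 repeat family, 63.5 ± 2.41% after the Rp and 63.0 ± 11.8% after the FRp. These bins were chosen for their small differences.

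The other introns of the same genes are set beside the called bins as a description, since the bins had been chosen for their difference. For 46 called bins the gene held at least 1 intron with no annotated alternative, with a median of 4. The median absolute difference was 18.7 points over these called bins and 0.26 points over the median other intron of their genes. The called bin had the larger absolute difference in 45 of the 46. In GUS3 the only other such intron differed by -56.7 points and the bin by -15.9 points. In AT4G35410 the 3 other such introns had a median difference of -6.56 points, against -41.6 points for the bin, and 1 of them was called. For 9 called bins the gene held another called intron of this kind. Of 231 such introns in these genes, counted whether tested or not, 8 were called themselves. Among all 57879 introns with no annotated alternative and the minimum of reads, 533 were called. These are 2.08% of the 25661 that were tested, a share that cannot be set beside 8 of 231.

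Both boundaries of an intron gave the same direction in 50 of the 51 called bins. The exception was AT1G12440, a zinc finger gene, where the difference was 19.8 points on the boundary named E1I and -0.38 points on the one named IE2. Among 388 bins with at least 50 boundary reads, the weaker boundary held a median of 41.2% of them and under 20% in 27 bins. Among all 51 called bins, counted without that minimum of reads, it held under 20% in 6. Whether E1I is the 5′ side on genes of the minus strand is not stated, so the boundaries are given by the table's names.

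The genes of the annotated IR bins were examined for their mRNA level, to see whether retention and level moved together. Of the 833 genes 420 (50.4%) were differentially expressed (DE, adjusted p under 0.05 by edgeR's quasi-likelihood test and a fold change over 1.5), 140 higher and 280 lower after the Rp, against 55.6% of all genes tested (28.8% higher and 26.8% lower). The direction of this split depended on the scaling, since library totals without TMM gave 278 higher and 149 lower and moved the median of all genes from a log2 fold change of 0.02 to 0.45. The 33 bins called higher lie in 32 genes, of which 3 were DE and higher after the Rp, 18 were DE and lower and 11 were not DE. Without TMM these became 7 higher, 8 lower and 17 not DE. The 18 bins called lower lie in 16 genes, with 5 higher, 5 lower and 6 not DE under both scalings. With TMM, LPD1 and AT4G21910 rose in both PIR and level, with gene log2 fold changes of 1.16 and 1.28. In AT1G68240 and AT1G61970 PIR rose while the level, also with TMM, fell by 0.96 and by 1.096 on the log2 scale. Across the 794 tested bins Pearson's r of the PIR difference and the log2 fold change of the gene was -0.15 and Spearman's rho was -0.21, given as a description because bins of 1 gene and all bins of 1 library share their source.

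**Figure D5:**
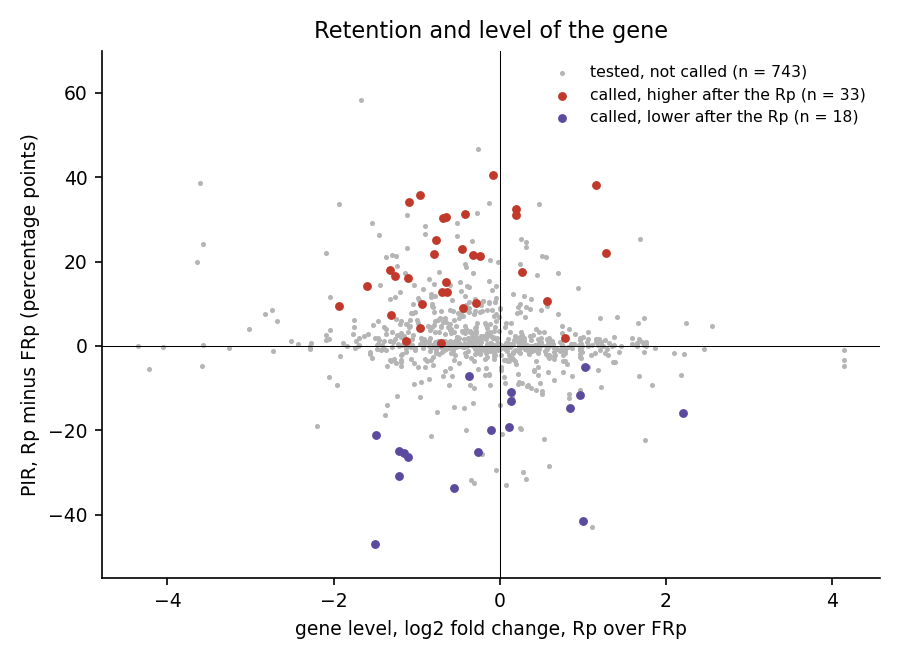
Difference of mean PIR (percentage points, Rp minus FRp) against the log2 fold change of the gene (Rp over FRp) for the 794 tested bins. Of the genes of the 33 bins called higher after the Rp, 18 were DE and lower after the Rp and 3 were DE and higher with TMM, against 8 lower and 7 higher without it.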

How the data were processed

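Paired-end reads of 6 libraries (3 Rp, 3 FRp) were aligned by the authors to TAIR10 with TopHat 2.1.1. They deposited raw read counts of genes, junctions and exon–intron boundaries. A PIR pooled per condition was deposited as a fraction and was only compared with the PIR recomputed here, from which it differed by over 0.01 percentage points in 0 of 910 bins. Use of strand in counting is not given in the sources used here, so overlapping genes are uncertain (10 bins, 0 of them called). Bins were named from their boundary reads, since the name of the line differs in 909 of 910. All 910 junctions lie inside their gene in RefSeq TAIR10.1, which supplied sequences, gene models and, for 907 bins, product names.

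PIR was computed per library and averaged. AS was tested in R 4.3.3 with edgeR 4.0.16, as a robust quasi-likelihood fit of inclusion and exclusion reads with a coefficient for each library and 1 for the inclusion change after the Rp. Tested events had at least 30 reads in each condition and 5 on each side, in genes whose mean count exceeded 10 and whose read density exceeded 0.05 in both conditions. Genes were tested with TMM, and CPM values are TMM-scaled. Both tests were run on counts simulated with 1 common dispersion. For AS, changes were planted only in events with at least 300 reads in each condition, while tested bins had a median of 215.5. The simulation therefore does not show how the AS test performs on bins with fewer reads. Named bins were the 12 called bins with the largest difference in each direction and no overlap between the groups, bins in lists of splicing, decay, light and hormone genes, the 5 called bins with the most reads, the 5 highest and the 5 least different well covered bins, and those next to the read minimum. Any other bin was named after its values were seen. The members, lists and tests were chosen with earlier results of these data known. Alternatives were other variance estimates, DESeq2 1.42.0, limma 3.58.1 (log2 ratios, pseudocount 0.5), single boundaries, other filters and thresholds, a replicate block, and each library left out. Figures were drawn with matplotlib 3.10.9.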

Additional observations from a re-analysis of the deposited data

How the results depend on the processing

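The number of annotated IR bins called, 51 (33 higher and 18 lower after the Rp), was within 1.5 times with default variance estimates, edgeR's newer quasi-likelihood method, a minimum of 60 reads, a threshold of 10 points and PIR from pooled reads. It was 10 (8 higher, 2 lower) with DESeq2, 4 (3 higher, 1 lower) with limma, 29 (20 higher, 9 lower) with reads of the E1I boundary only, 32 (23 higher, 9 lower) with those of the IE2 boundary only, 19 (14 higher, 5 lower) with no filters, and 23 (17 higher, 6 lower) at an adjusted p under 0.05. Leaving out 1 library gave 18 to 27 calls, 15 to 19 higher and 3 to 9 lower, with the fewest without Rp replicate 1. Of all 28466 events, the main fit called 683, DESeq2 and limma 154 each, E1I reads 270, IE2 reads 277 and an adjusted p under 0.05 261. Leaving out 1 library called 268 to 385 events, and no filters 201 of 61297. At an unadjusted p under 0.05, 138 bins passed with edgeR, 116 with DESeq2 and 124 with limma. This was not counted over all events, so no share can be set beside these 3 numbers. Of the 51 calls, 11 were made in all 6 fits with 1 library left out, and 8 in none of these fits. The calls of 3 (LPD1, ARASP and RWA2) were made under every alternative, while 50 kept their direction under every alternative.

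With the replicate number as a block, 19 bins were called (14 higher, 5 lower), all 19 among the 51, and 233 of all 28466 events. The deviations of same-numbered libraries correlated at 0.0120, 0.00495 and 0.0185 over 9207 events, and not every library correlated best with its own number, so the numbers were not taken as pairs.

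Of the 833 genes of annotated IR bins, 225 (74 higher, 151 lower) were DE at a fold change over 2. These were 27.0%, against 34.0% of all genes tested. Without TMM, 278 of the 833 were higher and 149 lower, in all 51.3% against 59.6% of all genes. DESeq2 called 416 (49.9% against 55.6%), the block 417 (50.1% against 55.3%) and no filter 418 (50.2% against 42.0%). Leaving out 1 library called 414 to 433, which is 49.7 to 52.0%, against 54.4 to 56.0% of all genes.

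Among the 45 tested bins named by rule, leaving aside those next to the read minimum, the direction turned only where the difference was close to 0. In AT1G12440, named after its values were seen, a difference of 12.8 points became -0.38 points on the IE2 boundary. With 1 library left out, the difference was -0.76 to 0.69 points in RAP2.12, -2.21 to 1.98 in AT2G24420, -4.20 to 3.96 in GRX4, -0.029 to 0.099 in SR34a, -0.32 to 1.35 in smB and -3.50 to 7.31 in AT5G66240. It was 0.045 in AT2G24420 and 0.49 in GRX4 with pooled reads, and 3.32 in GRX4 and -0.87 in AT5G66240 on the IE2 boundary. No cause was tested. Too few inclusion reads left 112 bins without a test.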
